A study of Mus musculus with 6 samples.

Results

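The protein components of the cytosolic ribosome were followed in lacrimal glands of adult mice with and without the signalling ligand ectodysplasin A. Members were the protein-coding genes of the deposited count table whose symbols begin with Rpl or Rps, without the S6 kinase (Rps6k) genes and without symbols carrying -ps, plus Rack1 and Fau. This gave 88 genes of the 50686 gene identifiers in the table: 43 encode large subunit proteins, 33 small subunit proteins, 3 the proteins of the stalk (Rplp0, Rplp1, Rplp2), 8 are paralogs of another member, and 1, Rps19bp1, encodes a protein that binds the small subunit protein S19 and is not itself ribosomal. The members lie on 20 chromosomes.

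Every cytosolic ribosome joins a small subunit, which reads the mRNA, to a large subunit, which forms the peptide bond, and the stalk of the large subunit recruits the translation factors. Ribosomal protein genes are expressed in nearly all cells, their mRNAs begin with a terminal oligopyrimidine (TOP) tract through which mTORC1 controls their translation, and a secretory gland depends on ribosomes to make its proteins. Mammalian genomes also hold many processed pseudogenes of these genes, intronless copies of their mRNAs, so that reads from a gene and its copies can be hard to tell apart.

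The 6 libraries were total RNA, depleted of ribosomal RNA, from glands of mice 13 weeks old. The 3 wild-type libraries are titled Blacky and the 3 libraries of genotype Eda-/-, called mutant below, are titled Tabby; the genotype label names no tissue-specific driver. All carried the strain label C57BL/6, and the design text names them biological replicates. Library totals ran from 11894395 to 15700899 counts, Eda counts were 41, 48 and 42 without the mutation and 2, 0 and 0 with it, and the secreted mucin-like gene Mucl2 took between 4.08% and 4.35% of wild-type and between 7.71% and 12.6% of mutant counts. Of the members, 84 had enough counts to be tested. The other 4 were the paralogs Rpl10l (0 counts in all 6 libraries), Rpl39l (1 count in each), Rpl3l (4, 8 and 5 wild-type counts against 0, 2 and 0 mutant ones, libraries 1 to 3) and Rps27rt (between 4 and 10 counts).

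The results turn in part on copies that differ from a member at few bases, so stretches of 6 such pairs are shown. Each is the 60-base window of the member's coding sequence, free of gaps, in which the pair differs most (the first where tied). The matching stretch of the copy is given with it, 5′ to 3′, with the differing bases in capitals. Sequences are from the GENCODE M21 transcripts of GRCm38. Gm8730, a processed pseudogene (chr8:102864845-102865798, minus strand), differs from the coding sequence of Rplp0 at 12 of 954 bases; coding bases 388 to 447 are shown.
Rplp0: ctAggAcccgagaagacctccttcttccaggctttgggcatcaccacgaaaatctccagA
Gm8730: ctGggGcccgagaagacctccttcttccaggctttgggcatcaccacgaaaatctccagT
Rps3a3, a processed pseudogene (chr13:108670603-108671397, plus strand), differs from Rps3a1 at 9 of 795 bases; bases 201 to 260 are shown.
Rps3a1: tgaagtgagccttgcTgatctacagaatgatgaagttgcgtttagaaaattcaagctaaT
Rps3a3: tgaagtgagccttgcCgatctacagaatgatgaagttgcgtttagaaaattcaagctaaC
Gm10260, an intronless gene annotated as protein-coding (chr13:97760072-97760632, minus strand), differs from Rps18 at 4 of 459 bases; bases 312 to 371 are shown.
Rps18: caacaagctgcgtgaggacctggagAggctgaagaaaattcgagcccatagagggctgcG
Gm10260: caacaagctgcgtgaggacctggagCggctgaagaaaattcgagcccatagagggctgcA
Rps26-ps1, a transcribed processed pseudogene (chr8:107439131-107439579, minus strand), differs from Rps26 at 2 of 348 bases; bases 1 to 60 are shown.
Rps26: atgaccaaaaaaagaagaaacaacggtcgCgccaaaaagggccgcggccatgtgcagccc
Rps26-ps1: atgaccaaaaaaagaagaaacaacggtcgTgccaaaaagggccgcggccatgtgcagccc
Rpsa-ps10, a processed pseudogene (chr3:150072658-150073542, minus strand), differs from Rpsa at 6 of 885 aligned bases; bases 160 to 219 are shown.
Rpsa: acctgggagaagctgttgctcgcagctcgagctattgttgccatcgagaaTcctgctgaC
Rpsa-ps10: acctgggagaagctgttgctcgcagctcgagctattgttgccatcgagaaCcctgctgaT
Rpl3-ps1, a processed pseudogene (chrX:13202571-13203780, plus strand), differs from Rpl3 at 3 of 1210 aligned positions, of which 1 is a gap; bases 1 to 60 are shown.
Rpl3: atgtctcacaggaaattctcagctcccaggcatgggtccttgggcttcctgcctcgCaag
Rpl3-ps1: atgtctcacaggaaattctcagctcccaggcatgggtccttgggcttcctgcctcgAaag
In each window the pair differs at between 1 and 3 positions, so a short read from such a stretch may hold few bases, or none, that tell gene and copy apart.

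Under the scaling that sets typical genes equal between libraries (TMM), most ribosomal protein genes lay slightly higher in the mutant glands and a few far lower, whereas with library totals the median lay lower. Of the 84 tested members 13 rose and 6 fell (edgeR, quasi-likelihood; adjusted p below 0.05 after Benjamini-Hochberg correction over 13178 genes). Of all tested genes, 6.21% were higher and 6.9% lower. The small subunit gave 7 members that rose and 4 that fell of 33, the large subunit 4 and 1 of 43, the stalk 0 and 1 of 3, and the paralogs 2 and 0 of 4. None of the 13 exceeded a 1.5-fold rise, whereas Rps3a1 and Rps2 fell by over 1 on the log2 scale. The median log2 fold change of the members was 0.15, with 72 above 0, beside 0.00 over all tested genes, and the quartiles of the members were 0.08 and 0.23. At an unadjusted p under 0.05, 33 members were higher and 7 lower, beside 13.3% and 14.3% of all tested genes. DESeq2 called 9 higher and 7 lower, beside 4.16% and 5.27% of all genes.

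Scaling by library totals alone put the members' median at -0.13 and that of all genes at -0.28. In edgeR 0 members then rose and 12 fell at an adjusted p under 0.05, beside 1.87% of all genes higher and 33.1% lower. At an unadjusted p under 0.05, 0 members were higher and 22 lower, for which no share of all genes was worked out. The distance of the members' median from that of all genes was 0.15 under both scalings, 0.075 once a GC and length trend had been taken out, 0.095 without wild-type 2 and 0.25 with no filter on low counts, where the median of all genes was -0.10. The share of all counts assigned to members was 1.20% ± 0.07 in wild type against 1.04% ± 0.11 in the mutants (SD, n = 3 each), the libraries in which Mucl2 took its larger share. The groups overlapped, with mutant 1 at 1.16% and wild-type 2 at 1.12%. With the counts of annotated copies added, the shares were 1.22% ± 0.07 and 1.09% ± 0.11. In bulk tissue, fewer cells of a type and less RNA per cell cannot be told apart.

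**Figure D1:**
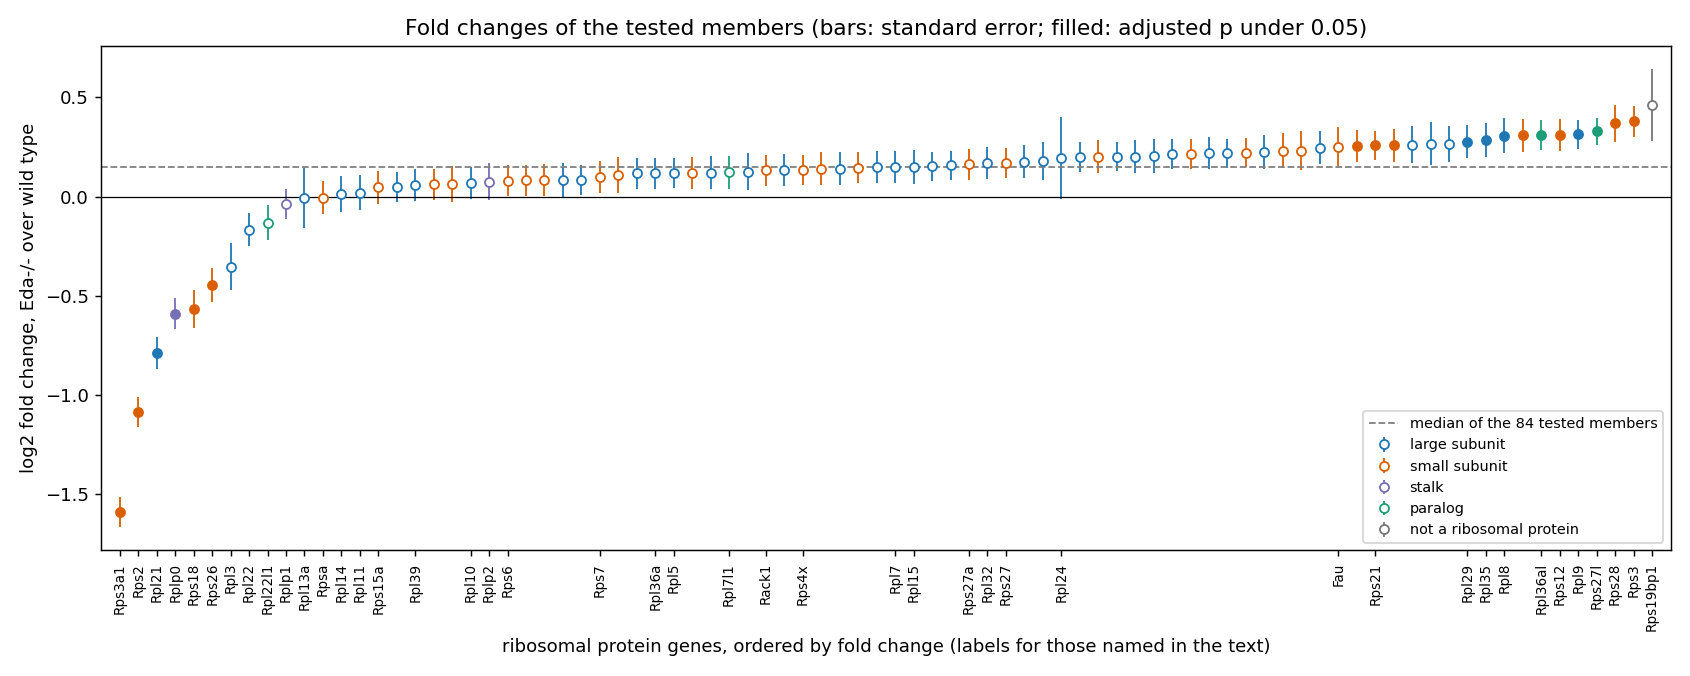
Log2 fold change (mutant over wild type, TMM scaling; bars are standard errors) of the 84 tested members, ordered by value; filled points passed edgeR's test, the dashed line is the members' median of 0.15 (-0.13 with library totals), and colours give the role; labels mark members named in the text. The 6 filled points on the left lie at -0.44 or below, and the 13 filled points on the right between 0.26 and 0.38.

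Values within each library showed how small the general shift was. Relative to each gene's wild-type mean, the median member stood at 0.08, -0.08 and 0.00 (log2 CPM, counts scaled to a common library size by TMM) in wild-type 1, 2 and 3 and at 0.24, 0.14 and 0.05 in mutant 1, 2 and 3. Wild-type 1 was thus above mutant 3, and the groups overlapped. Gene by gene, the libraries of the groups did not overlap for 29 members with the mutants higher and 7 with the mutants lower, beside 15.9% and 16.2% of all tested genes. The sum over members was 10945 ± 611 CPM in wild type against 11500 ± 832 in the mutants (SD, n = 3 each).

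**Figure D2:**
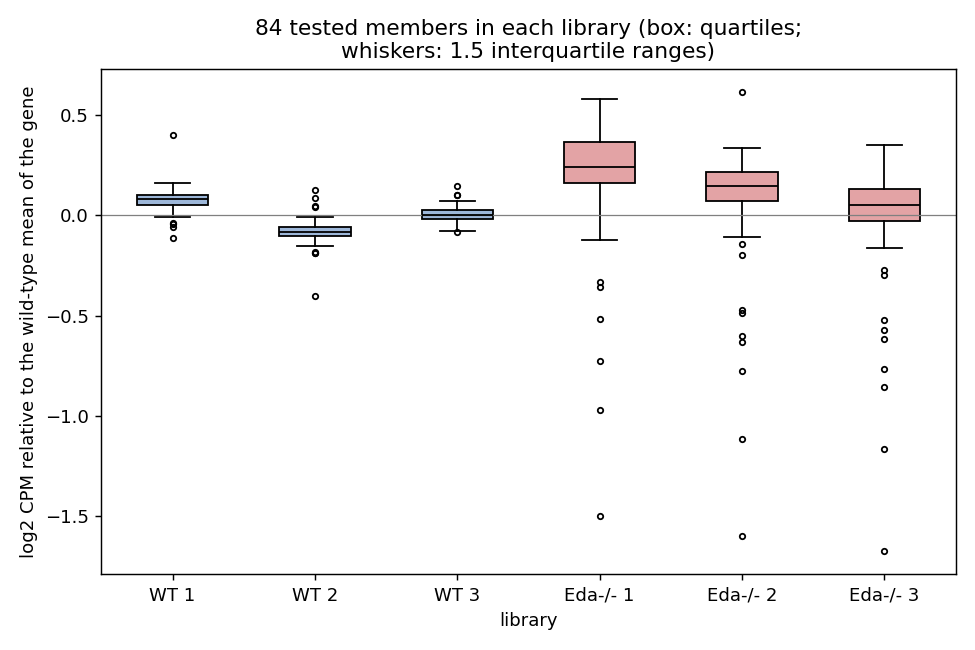
Log2 CPM of the 84 tested members in each library, relative to the wild-type mean of each gene (TMM scaling; boxes are quartiles, whiskers 1.5 interquartile ranges, circles members beyond them). Medians run from -0.08 to 0.08 in wild type and from 0.05 to 0.24 in the mutants, and the lowest circles of the mutants are the members that fell.

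Among small subunit genes, the largest fall was that of Rps3a1 (ENSMUSG00000028081.6, GRCm38 chromosome 3, 86137940 to 86142702), which encodes a protein at the solvent side of the small subunit. It stood at 254.2, 233.4 and 241.4 CPM in wild-type 1, 2 and 3 against 85.9, 80.1 and 75.9 in mutant 1, 2 and 3. The groups lay far apart, and the log2 fold change was -1.59 (SE 0.08, edgeR adjusted p = 8.08e-10). Its copy Rps3a3 did the opposite, with 93, 91 and 84 counts in wild type against 1069, 1131 and 1211 in the mutants. A second copy, Rps3a2, rose from 10, 8 and 11 to 80, 61 and 66 counts. Copies held 2.70% of the counts of Rps3a1 and its copies in wild type against 56.4% in the mutants. With those counts added to the gene, the sum was 250 ± 10.9 and 185 ± 8.31 CPM (SD, n = 3 each), a fall by 0.43 that still passed (adjusted p = 0.00122).

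Rps2, a small subunit protein near the path of the mRNA (ENSMUSG00000044533.15, chromosome 17, 24718116 to 24721929), stood at 139, 134 and 147 CPM in wild type against 71.4, 64.5 and 62.4 in the mutants. The groups lay far apart, and the gene fell by 1.08 on the log2 scale (SE 0.08, edgeR adjusted p = 7.93e-08). Its copy Rps2-ps10 on chromosome 18 had 0, 1 and 0 counts in wild type against 155, 91 and 103 in the mutants. That is a ratio of normalised counts of 486, with an exact binomial 95% interval from 86.6 to 19231 that covers counting error only. Copies held 1.58% and 15.7% of their summed counts in wild type and mutant, and the sum of gene and copies still fell, by 0.86 (adjusted p = 3.70e-06).

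Rps18 and Rps26, at the head and at the mRNA exit of the small subunit, fell less. Rps18 (ENSMUSG00000008668.14, chromosome 17, 33951999 to 33956001) stood at 168, 148 and 155 CPM in wild type against 123, 103 and 92.1 in the mutants (log2 fold change -0.57, SE 0.10, edgeR adjusted p = 0.00141). Gm10260, shown above beside it, had 1, 2 and 0 counts in wild type against 297, 235 and 303 in the mutants, a ratio of 387 (exact binomial 95% interval 132 to 1881). Added together, Rps18 and its copies had a log2 fold change of -0.24 that did not pass (adjusted p = 0.102). Rps26 (ENSMUSG00000025362.6, chromosome 10, 128624534 to 128626747) stood at 67.2, 56.3 and 60.7 CPM in wild type against 48.6, 44.1 and 42.6 in the mutants (-0.44, SE 0.09, adjusted p = 0.00285). Its copy Rps26-ps1 rose from 2, 6 and 3 to 166, 118 and 125 counts, and the sum stood at -0.11 and did not pass (adjusted p = 0.446). For both genes the copies held under 1% of the summed counts in wild type against 21.1% (Rps18) and 20.7% (Rps26) in the mutants.

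In the stalk, Rplp0 fell and its partners did not pass. Rplp0 (ENSMUSG00000067274.10, chromosome 5, 115559467 to 115563727), whose protein anchors the stalk to the large subunit, stood at 526, 475 and 485 CPM in wild type against 345, 319 and 323 in the mutants (log2 fold change -0.59, SE 0.08, edgeR adjusted p = 0.000105). Rplp1 and Rplp2, the acidic proteins that Rplp0 holds, stood at -0.04 and 0.07 with overlapping groups. All 3 copies of Rplp0 that were tested rose. Gm8730 went from 26, 25 and 16 to 1739, 1346 and 1724 counts, Gm9625 from 3, 6 and 16 to 508, 475 and 544, and Gm14165 from 1, 6 and 4 to 252, 215 and 230. Copies held 0.434% of the summed counts in wild type against 38.1% in the mutants. With them added, the sum was 498 ± 26.8 CPM in wild type against 532 ± 29.2 in the mutants (SD, n = 3 each), at a log2 fold change of 0.10 that did not pass (adjusted p = 0.468), so that the sign of the difference turned.

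Rpl21 (ENSMUSG00000041453.12, chromosome 5, 146832890 to 146837032) was the large subunit gene that fell. It stood at 173, 142 and 157 CPM in wild type against 94.6, 91.3 and 86.5 in the mutants (log2 fold change -0.79, SE 0.08, edgeR adjusted p = 8.43e-06). Unlike the genes above, its copies held little in either group, 1.63% and 2.85% of the summed counts over 74 annotated copies, and the sum fell by 0.77 (adjusted p = 1.30e-05). Rpl3, which reaches into the peptidyl transferase centre, passed under some settings and not others. It stood at 226, 212 and 209 CPM in wild type against 208, 154 and 145 in the mutants (-0.35, SE 0.12), without overlap, and did not pass in edgeR (adjusted p = 0.0862). It passed in DESeq2 (adjusted p = 0.0284), and in edgeR after removal of a GC and length trend (0.0360), with library totals (0.0129), with no filter (0.00102) and without mutant 1 (0.000746). Rpl3-ps1 rose from 12, 16 and 15 to 121, 176 and 266 counts, and with copies added the sum of Rpl3 stood at -0.23 and did not pass (adjusted p = 0.144).

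**Figure D3:**
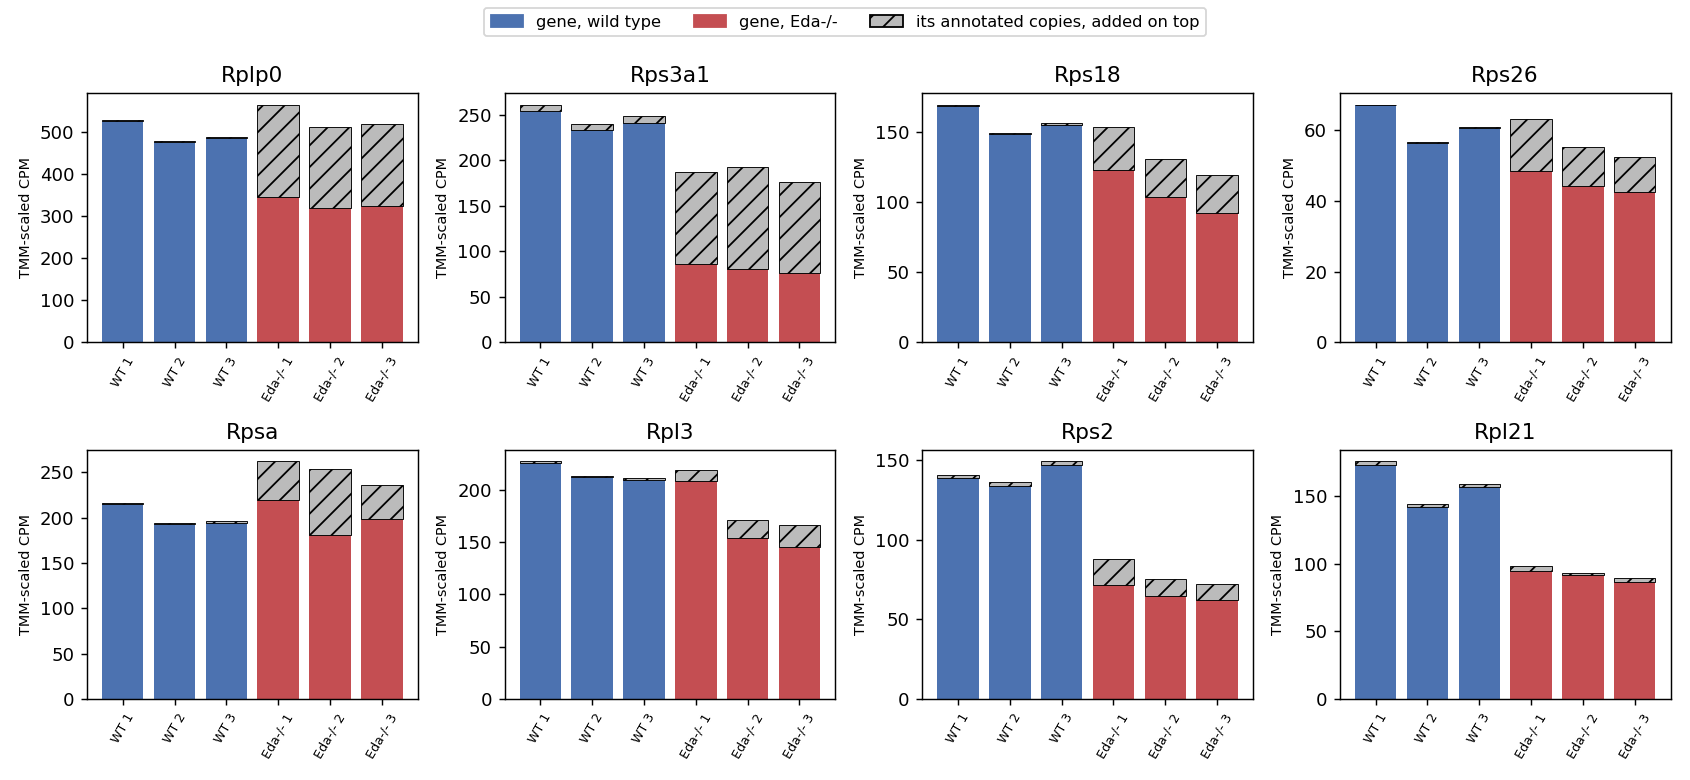
CPM (TMM scaling) of 8 members in each library as bars from 0, with the counts of their annotated copies stacked on top (hatched). In wild type the hatched part is thin in every panel. In the mutants it is 56.4% of the bar on average for Rps3a1 and 38.1% for Rplp0, and for Rpl21 it stays near 2.85%.

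The copies that passed all rose, while most tested copies did not pass and had values on both sides of 0. GENCODE lists 902 copies of 83 members in the table by the definition used here (a pseudogene with at least 10%, or another gene with at least 30%, of its 31-base words shared with the member), of which 54 were tested, 16 rose and 0 fell (edgeR; also 0 lower at an unadjusted p under 0.05, in DESeq2 and in limma-voom). Beside them stand 6.21% and 6.9% of all genes; their high sequence sharing sets the copies apart from most genes, so these shares are no like-for-like background. The 16 belong to 11 members. Many of the 16 passed the filter on low counts only through the mutants. Among them, Rps2-ps10, Gm10260, Rpl15-ps2, Gm14513 and Gm10020 had between 0 and 2 counts in each wild-type library. Rps26-ps1 (2, 6 and 3 wild-type counts), Gm14165 (1, 6 and 4) and Gm6436 (3, 10 and 5) were also too low in wild type to pass without the mutants. The tally of copies that rose thus depends in part on that filter. Summed over all 902, copies had 1875, 1834 and 1815 counts in wild type against 6461, 5977 and 6666 in the mutants, a change that kept the groups apart. A few copies made up a large part of the mutant sum. Over the 3 mutant libraries Gm8730 had 4809 counts and Rps3a3 3411, against 67 and 268 in wild type. Rps7 (Gm6472, from 19, 18 and 13 to 70, 69 and 63 counts), Rpl14 (Rpl14-ps1, from 20, 11 and 16 to 52, 43 and 34) and Rpl15 (Rpl15-ps2, from 0, 2 and 0 to 25, 28 and 32) also had a copy that rose, and at these levels adding the copies moved the gene's own log2 fold change by under 0.1. Not every copy moved alike within the group: Rps15a-ps7 had 6, 2 and 6 counts in wild type against 47, 2 and 33 in the mutants, with mutant 2 at the wild-type level.

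Rpsa, a small subunit protein also known as the laminin receptor, changed its call the other way. Alone it stood at 215, 193 and 194 CPM in wild type against 219, 181 and 199 in the mutants, with overlap and a log2 fold change of -0.01 (edgeR adjusted p = 0.973; -0.28 and 0.0224 with library totals). Rpsa-ps10 rose from 11, 11 and 18 to 478, 762 and 469 counts, highest in mutant 2. With copies added, the sum was 202 ± 12.0 and 251 ± 13.1 CPM (SD, n = 3 each) and rose by 0.31 (adjusted p = 0.0144). In that sum over all members 12 rose and 3 fell (6.1% and 6.87% of 13124 genes): 11 of the 13 and 3 of the 6 kept their call, Rpl29 was among those that no longer passed higher, and Rplp0, Rps18 and Rps26 no longer passed lower. Whether reads of the genes were counted at the copies, or the copies themselves were transcribed, was not tested, and counts per gene do not hold the reads.

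**Figure D4:**
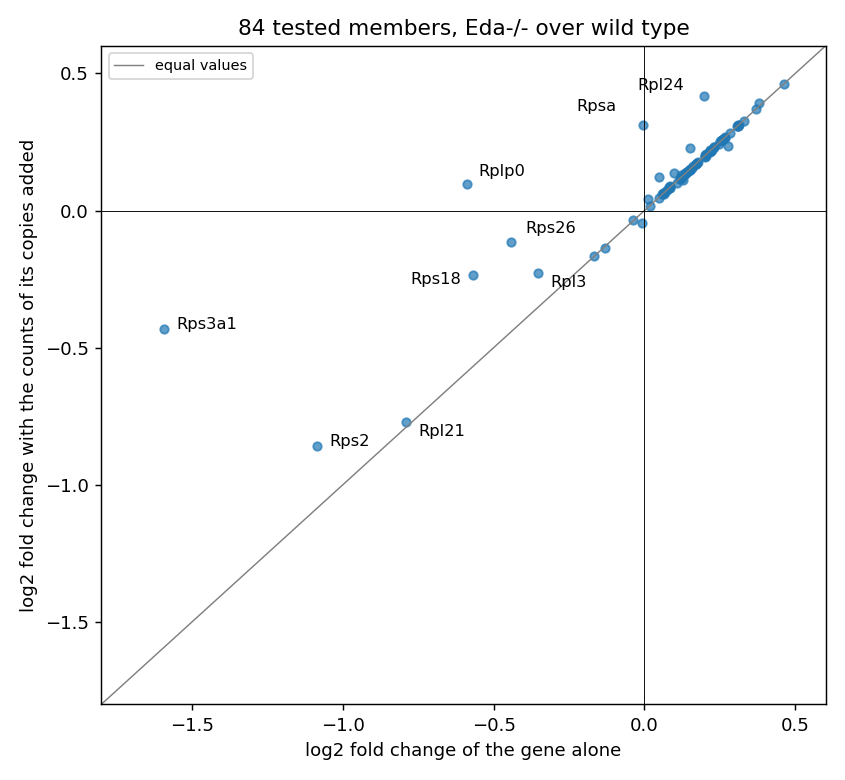
Log2 fold change of each of the 84 tested members alone (x axis) and with the counts of its annotated copies added (y axis), TMM scaling; the grey line marks equal values. Most points lie on the line, while Rps3a1 moves from -1.59 to -0.43, Rplp0 from -0.59 to 0.10 and Rpsa from -0.01 to 0.31, and Rpl21 stays near -0.77.

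Of the members that rose, Rps3 (ENSMUSG00000030744.13, chromosome 7, 99477896 to 99483738), which lines the mRNA entry channel and also has a role in DNA repair, stood at 229.8, 218.0 and 222.8 CPM in wild type against 317, 276 and 280 in the mutants (log2 fold change 0.38, SE 0.08, edgeR adjusted p = 0.00439). It shares 6.36% of its words with other transcripts, yet it too has a copy, by the definition used here, that rose. This copy, Gm14513, is a processed pseudogene of 123 bases on chromosome X and shares 11.8% of its own words with Rps3. Among the copies whose stretches are shown above, the lowest such share was 62.8%, that of Gm8730 with Rplp0. Gm14513 had 0 counts in each wild-type library against 46, 13 and 24 in the mutants. That is at least 38.5-fold higher against a floor of 3 counts over the group. Copies held 0.810% of the summed counts of Rps3 and its copies in the mutants, and the sum rose by 0.39 (adjusted p = 0.00391). Rpl9 of the large subunit stood at 172.7, 170.2 and 170.0 CPM in wild type against 224, 216 and 197 in the mutants (0.31, SE 0.07, adjusted p = 0.0108). Rps27l, a paralog of Rps27 known as a p53 target, stood at 86.7, 88.5 and 82.9 CPM and 109, 106 and 109 (0.33, SE 0.07, adjusted p = 0.00475). In these 3 genes the mutants lay above every wild-type library, and they passed with each library left out in turn.

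The 10 others that rose lay between 0.26 and 0.37. They included the small subunit genes Rps28 (0.37), Rps12 (0.31) and Rps21 (0.26), the large subunit genes Rpl8 (0.31), Rpl35 (0.28) and Rpl29 (0.28), and Rpl36al (0.31), a paralog of Rpl36a. In Rps28 the wild-type libraries had 57.6, 52.3 and 58.9 CPM and the mutants 84.1, 66.1 and 67.8, with mutant 1 the highest. Single libraries decide these calls: without wild-type 2 all 10 were lost and 3 members rose, without mutant 1 all but Rpl36al were lost and 4 rose, and without wild-type 3 the calls of Rps12 and Rps28 remained, those of Rps21, Rpl8, Rpl29, Rpl35 and Rpl36al were lost, and 6 members rose. Without mutant 2, where 8 rose, Rps21, Rpl29 and Rpl35 were among those lost, and without wild-type 1, where 10 rose, Rpl29 and Rpl35. With library totals Rps3 stood at 0.10, Rps21 at -0.02 and Rpl29 at 0.00, none of which passed.

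Rack1, Fau and Rps27a did not pass. Rack1, the scaffold of the small subunit that binds protein kinase C, stood at 297, 267 and 296 CPM in wild type against 336, 307 and 300 in the mutants, without overlap (log2 fold change 0.13, edgeR adjusted p = 0.298). Fau, made as a fusion of a ubiquitin-like protein with the small subunit protein S30, stood at 0.25 (adjusted p = 0.115), and Rps27a, a ubiquitin fusion, at 0.16 (adjusted p = 0.186). Rps6, the substrate of the S6 kinases, stood at 0.08, and Rpl5 and Rpl11, which bind the p53 regulator Mdm2, at 0.12 and 0.02. Of the 4 X-linked members, Rps4x (0.13), Rpl36a (0.12), Rpl10 (0.07) and Rpl39 (0.06), 0 passed in edgeR, and also 0 at an unadjusted p under 0.05, in DESeq2 and in limma-voom. Rps19bp1 had the highest value of all, 0.46, with an SE of 0.18 and between 47 and 59 counts per library, and did not pass (adjusted p = 0.112).

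Paralogs were compared with their parent genes by the ratio of their counts, not corrected for length. The ratio of Rpl36al to Rpl36a was 1.62, 1.53 and 1.45 in wild type against 1.78, 1.82 and 1.68 in the mutants, without overlap (two-sided exact permutation test p = 0.1, the smallest that 3 against 3 allows; adjusted over 4 pairs 0.4). The ratio of Rps27l to Rps27 was 0.739, 0.841 and 0.764 in wild type against 0.813, 0.857 and 0.950 in the mutants, with overlap (exact p = 0.2, adjusted 0.4). For Rpl22l1 to Rpl22 the ratios ran from 0.577 to 0.633 and from 0.593 to 0.656 (exact p = 0.7, adjusted 0.9). For Rpl7l1 to Rpl7 they ran from 0.0986 to 0.122 and from 0.104 to 0.113 (exact p = 0.9, adjusted 0.9).

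Per kilobase of exon, member levels spanned over 2 orders of magnitude. Rplp1 was highest, at 603 ± 30.7 CPM per kilobase in wild type against 588 ± 36.3 in the mutants (SD, n = 3 each). In wild type Rplp0 (299 ± 16.3), Rps3a1 (249 ± 10.7), Rpl32 (243 ± 17.1) and Rps4x (194 ± 10.2) followed, where Rps3a1 and Rpl32 differed by less than their spread. In the mutants Rpl32 (274 ± 18.6) and Rps4x (213 ± 8.78) stood above Rplp0 (199 ± 8.50), and Rps3a1 was at 82.6 ± 5.12. The lowest tested members in wild type were Rpl13a (2.70 ± 0.14), Rps19bp1 (2.94 ± 0.25), Rpl24 (3.71 ± 1.02), Rpl7l1 (9.04 ± 0.28) and Rps15a (14.7 ± 1.22). The wild-type libraries of neighbours among the first 3 overlapped. Rpl13a and Rpl24 overlap other genes on the same strand over 36.8% and 47.0% of their exons, which can withhold reads from a count, so their levels are uncertain. The median member stood at 55.8 CPM per kilobase in wild type against 61.5 in the mutants, and the rank order of the 84 levels was similar between the group means (Spearman's rho 0.965, across genes of shared libraries).

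**Figure D5:**
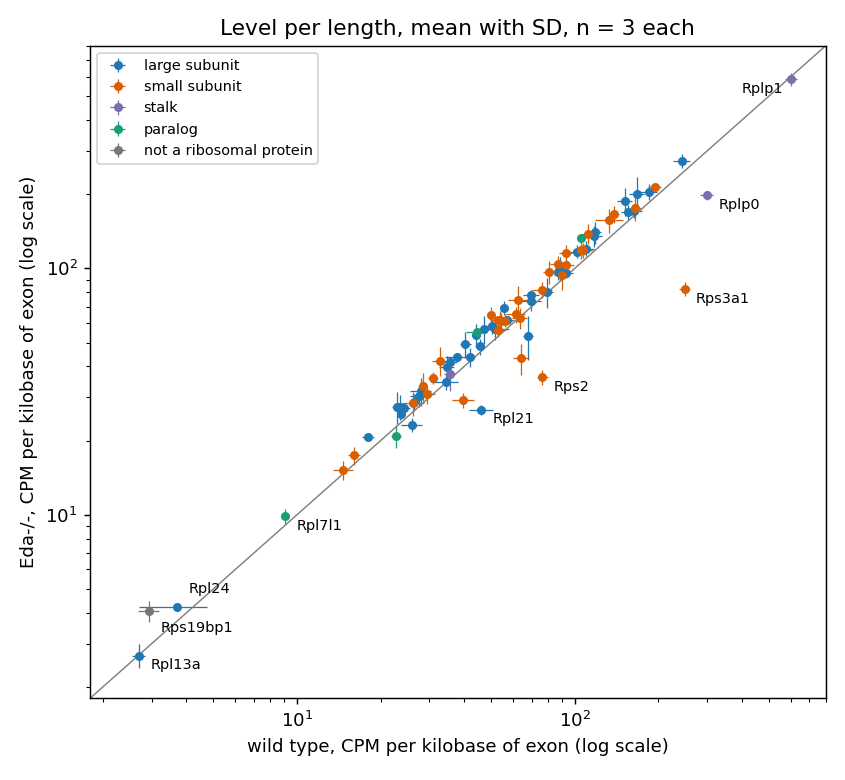
Mean level in wild type (x axis) and in the mutants (y axis) in CPM per kilobase of exon, both on log scales, with SD over 3 libraries (TMM scaling); the grey line marks equal levels and colours give the role. Most points lie just above the line under this scaling, Rplp1 is highest at 603 and 588, and Rps3a1, Rplp0, Rps2 and Rpl21 lie below it.

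From member to member, features that the choice of members did not use went little with the fold change. Across the 84 tested members Pearson's r with it was 0.06 for GC content, -0.03 for exonic length and -0.21 for the share of words found in other annotated transcripts, as a description across genes of shared libraries. Such an r cannot show a trend that moves the members together. With a GC and length trend removed, the distance of their median from that of all genes went from 0.15 to 0.075, and 8 rose. Of the 88 members 75 shared at least 10% of their words. Among the 11 tested members below that, 3 rose and 0 fell in edgeR, beside 6.21% and 6.9% of all tested genes, with a median of 0.20. DESeq2 called 2 higher and limma-voom 1, and 0 were lower in either or at an unadjusted p under 0.05. With 11 members, 0 falls cannot tell whether sharing goes with the falls. The 31 tested hosts of small nucleolar RNA genes, which guide modification of ribosomal RNA, had a median of 0.11 and the 53 others 0.18, a difference that was not tested.

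Other genes of ribosome production moved little. Of 22 tested genes of ribosomal DNA transcription 0 passed in edgeR (2 higher at an unadjusted p under 0.05; 0 in DESeq2). Of 52 in ribosomal RNA processing 4 rose (7.69%, beside 6.21% of all tested genes), among them Imp3 (0.36) and Rcl1 (0.46), factors of early small subunit processing. Of 57 in large subunit assembly 4 rose (7.02%), among them Bop1 (0.61), Heatr3 (0.52) and Pes1 (0.33); Bop1 and Pes1 belong to 1 complex. Of 23 in small subunit assembly 2 rose (8.70%), Bud23 (0.49) and Riok3 (0.22), and in these 4 lists 0 fell in edgeR (2 at an unadjusted p under 0.05, both in ribosomal RNA processing; 0 in DESeq2). These shares lie near that of all genes. Medians were 0.08, 0.08, 0.07 and 0.17 in that order, beside 0.00 over all genes.

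Of 33 other TOP mRNAs, 1 rose (3.03%, beside 6.21% of all tested genes), the elongation factor Eef1g (0.53). In the same list 2 fell (6.06%, beside 6.9% of all tested genes), among them the intermediate filament gene Vim (-0.52). Of 35 genes of mTORC1 and TOP control, Eif4g1 (0.27), Sesn1 (0.35) and Rragd (0.30) rose (8.57%) and Tsc2 fell (-0.29). In DESeq2 1 of the 35 was higher and 0 lower. Of 14 transcription factors of ribosome genes 0 passed in edgeR (1 lower at an unadjusted p under 0.05; 0 in DESeq2). Of 28 genes of ribosome quality control and p53 surveillance 7 rose (25%, beside 6.21% of all tested genes), among them Zmat3 (0.42), Abce1 (0.24) and Hbs1l (0.24). In DESeq2 2 of the 28 were higher, beside 4.16% of all tested genes. Map3k20, a kinase that senses stalled ribosomes, fell (-1.07). The 25 calls over these lists became 10 in DESeq2 and between 10 and 15 with any 1 library left out.

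Marker genes of cell types were read beside these values. For the counts that follow, the shares of all tested genes were 6.21% higher and 6.9% lower in edgeR. They were 13.3% and 14.3% at an unadjusted p under 0.05, and 4.16% and 5.27% in DESeq2. Of 9 acinar markers, defining ones of the labelled gland, 3 rose and 0 fell, with a median log2 fold change of 0.13. Their sum ran from 149251 to 166978 CPM in wild type and from 232182 to 263253 in the mutants. That sum includes Mucl2 with its larger mutant share of counts, so it does not describe the list as a whole. Of 8 macrophage markers 4 fell in edgeR (sums 73.0 to 151 and 31.3 to 38.6 CPM). All 8 were lower at an unadjusted p under 0.05, and 7 in DESeq2 and in limma-voom. Of 6 fibroblast markers 3 fell (197 to 258 and 155 to 182; 3 in DESeq2). Of 8 myoepithelial and basal markers 4 fell (134 to 173 and 99.6 to 116; 4 in DESeq2, 2 in limma-voom). Of 6 endothelial markers 2 fell (47.3 to 61.0 and 37.2 to 41.3; 2 in DESeq2). Ductal markers (802 to 849 and 763 to 811) and cycling markers (30.9 to 48.2 and 24.5 to 31.9) had 0 calls of 5 and of 6 tested in edgeR and in DESeq2 (0 and 2 at an unadjusted p under 0.05). None of the markers in these lists was at 0 in all libraries. Of 4 erythrocyte markers 2 fell (18.7 to 28.3 and 4.99 to 14.4 CPM), of 2 nerve and Schwann markers tested 1 fell (5.01 to 6.24 and 2.65 to 4.45), and the 1 adipocyte marker tested, Fabp4, rose (all 4 listed, 1.0 to 1.5 and 3.4 to 4.3). Plasma cell markers summed to between 55.6 and 154 CPM in wild type and between 146 and 339 in the mutants, with overlap and a median log2 fold change of 1.5 over 5 tested, of which 0 passed in edgeR (1 higher and 2 lower at an unadjusted p under 0.05; 1 higher in DESeq2). Sums of T and NK, B, skeletal muscle and salivary markers stayed at or below 2.12 CPM. Their part in the ribosomal protein values was not tested.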

How the data were processed

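The authors deposited whole-number read counts per gene for 6 libraries. The submitters' processing notes name bcl2fastq, Trimmomatic, STAR, featureCounts, DESeq2 and build GRCm38.p5; for versions, strand setting and reads mapping to several places, these sources give nothing, so near-identical, overlapping and antisense genes are uncertain.

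Groups came from the genotype label and columns were matched by name. GENCODE M21 matched 50462 identifiers; 224 had no match. Tests of the 13178 genes passing filterByExpr (minimum count 10) used edgeR 4.0.16 under R 4.3.3 (TMM, genotype alone, robust quasi-likelihood, two-sided, Benjamini-Hochberg threshold 0.05). SE is the absolute log2 fold change over the square root of F. CPM are TMM-scaled; per-kilobase levels divide by merged exons. Shared words are 31-base words of GENCODE transcripts, not of the genome. Scripts were tested on simulated counts. Replicates differed by more than sampling noise (chi-square per degree of freedom at least 8.61). Library numbers did not pair the groups.

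Members, lists and tests were chosen with earlier results of these data known. Named by rule were members that passed, Rack1, Fau, Rps3a1, Rpsa, Rps27a, stalk, X-linked and paralog members, the 5 highest and lowest per kilobase and up to 4 passing genes per list; some genes of the rule are not reported here. The copies, Rps6, Rpl5, Rpl11 and Rps15a-ps7 were chosen after their values were seen, as was adding copies to members. Alternatives were DESeq2 1.42.0, limma-voom (limma 3.58.1), other scalings and filters, a replicate block, removal of abundant genes or of a GC and length trend, non-robust fits, and leaving out each library.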

Additional observations from a re-analysis of the deposited data

How the results depend on the processing

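The 6 falls passed under every alternative run on the genes alone, and adding copies left 3. Among the 11 tested members sharing under 10% of their words 0 fell and 3 rose, too few members to compare with the rest. The 13 rises became 8 in limma-voom, after removal of a GC and length trend, and in fits that were not robust, 7 with upper-quartile scaling and with a minimum count of 50, and between 3 and 15 with 1 library left out (6 to 7 falls, median 0.11 to 0.21). Over all tested genes under TMM, 819 were higher and 909 lower. With 1 library left out, still under TMM, these were 561 to 677 and 599 to 834 (599 without mutant 3). With library totals 0 members rose, 12 fell, the median was -0.13, and 246 of all tested genes were higher and 4365 lower. Under that scaling Rps21 (-0.020) and Rpl29 (-0.0022) turned sign, and under TMM so did Rplp0 with copies added (0.10). The 25 calls in related lists were 10 in DESeq2, 73 with library totals, 12 with upper-quartile scaling, 16 with a minimum count of 50, 16 in fits that were not robust, and 10 to 15 with 1 library left out. With library totals the median of all genes moves to -0.28, and fits with a library left out hold fewer samples; other causes were not tested. Same-numbered libraries did not deviate together (correlations -0.04, 0.02 and -0.09); with a replicate block 12 members rose, 7 fell, Rpl3 among them (adjusted p = 0.0160), and 13 related genes were called. Of the values of single named members, 560 stayed on their side of the threshold, 56 no longer passed, 11 newly passed and 3 that had passed turned sign. With 3 libraries per group and a median SE of 0.08 on the log2 scale, rises near 0.26 stand close to what the test resolves.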
